A study of Homo sapiens with 6 samples.

Results

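The genes described here encode 42 factors that build ribosomes in the nucleolus, together with subunits and partners of RNA polymerase I, the enzyme that transcribes the ribosomal RNA precursor. They were chosen by name, and their Ensembl identifiers, with the version removed, matched 42 of the 57820 rows of the gene count table. All 42 passed the filter on low counts, with 313 to 21984 counts per gene and library. RNA was measured in HEK293 cells (ATCC CRL-1573), an established human embryonic kidney line, after 12 h with 100 µM minocycline (batches 1, 2 and 3) or with the dimethyl sulfoxide (DMSO) vehicle (the same 3 batches). Each group held 3 libraries of total RNA from cells that had not been heat shocked, which the design calls biological replicates, and a library's replicate number is also its batch. All libraries come from this cell line, and RNA of the polysome fractions was not analysed here.

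Ribosome assembly begins when RNA polymerase I copies the ribosomal DNA, with UBTF holding the gene open and RRN3 linking the polymerase to its promoter factors. Small nucleolar ribonucleoproteins (snoRNPs) then guide the modification of the precursor: box C/D particles methylate riboses and box H/ACA particles make pseudouridine. Processome and assembly factors fold and cut the precursor into the small and the large subunit, and the genes of this pathway are commonly read as markers of growth signalling in dividing cells.

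Promoters of ribosome biogenesis genes are known to bind MYC at the E-box, whose letters are CACGTG on both strands. RefSeq promoter sequences (GRCh38.p14) matched 34 of the 42 members. In the 250 bases before the annotated start, 4 of these 34 (11.8%) held the motif, against 8.69% of 11867 genes tested and 4.69% of 64 ribosomal protein genes. All 4 genes, NAT10, UTP4, UTP20 and NOP10, are shown with a stretch in which the motif (in capitals) lay within 16 bases of the annotated start. The stretches end at the last base before the start, and run 5′ to 3′ on the gene's strand. The NOP10 window held the motif 2 times, and the other occurrence is not shown.
NAT10 (plus strand, chr11:34105564-34105628): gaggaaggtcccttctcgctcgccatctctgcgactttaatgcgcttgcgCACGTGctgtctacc
UTP4 (plus strand, chr16:69132583-69132648): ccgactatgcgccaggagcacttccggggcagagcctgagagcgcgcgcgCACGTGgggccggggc
UTP20 (plus strand, chr12:101280045-101280104): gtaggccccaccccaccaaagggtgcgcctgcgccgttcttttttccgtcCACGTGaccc
NOP10 (minus strand, chr15:34343137-34343197): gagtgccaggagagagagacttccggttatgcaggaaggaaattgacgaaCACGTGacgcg

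The 6 libraries held 17303180 to 17835756 counts. Control replicate 1 stood apart from the other control libraries: on the first principal component, which held 52.9% of the variance, it lay at -34.9, beside minocycline replicate 2 at -32.3, while control replicates 2 and 3 lay at 31.1 and 47.1. Minocycline replicates 1 and 3 lay at -14.0 and 3.06. Member values that rest on control replicate 1 are therefore also given without it, after the levels of each role. Of 9 markers listed for HEK293 cells, 7 had a row, and NEFM (65.0 to 87.3 CPM, counts scaled to the size of the library), KRT8 (679 to 972 CPM) and VIM (529 to 865 CPM) were among those detected, with PAX2 at 2.70 to 5.22 CPM. Of 17 matched markers of fibroblasts, blood cells, hepatocytes and endothelium, COL1A1 reached 80.1 CPM and the other 16 at most 3.32 CPM.

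No member passed the test of minocycline against vehicle. The quasi-likelihood test of edgeR, with Benjamini-Hochberg adjustment over all 17225 genes tested, gave the members adjusted p-values of 0.820 to 1.00. Of all genes tested, 9 (0.0522%) passed, all higher with minocycline, and 0 of the 42 members did. At an unadjusted p under 0.05 there was 1 member, NOP16, as did 4.7% of all genes (1.97% with a lower level). DESeq2 and limma-voom also called 0 members, where they called 0.302% and 0.0639% of all genes, and each gave an unadjusted p under 0.05 to 1 member, again NOP16. That number depended on the fit. It was 0 with the batch as a block, 5 with exon length and GC content corrected and 14 without control replicate 1. The share of all genes at this unadjusted level was not counted in those fits, so these numbers cannot be read as particular to the members. Without control replicate 1, 17.9% of all genes passed even the adjusted threshold. The fitted level was lower with minocycline in 28 members and higher in 14, with a median log2 fold change of -0.07; scaled by library size alone, 21 were lower and 21 higher. In the fit reported here, 47.9% of all genes tested had a lower fitted level and the median was 0.01. With library size alone, this share was not counted. The 95% intervals of the 42 log2 fold changes, taken from the standard error of the fit, ran from -0.84 (lower bound for BOP1) to 0.84 (upper bound for DDX21). The interval excluded a change of 1.5-fold in either direction for 34 of the 42 members, taken one gene at a time. This count holds for the fit with all 6 libraries. It was not made over all genes or without control replicate 1, where the estimates of several members moved. In bulk RNA, a smaller number of cells of a kind and less RNA per cell cannot be told apart, and CPM is a share of the counted RNA, so a change common to all transcripts would not appear in it.

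**Figure D1:**
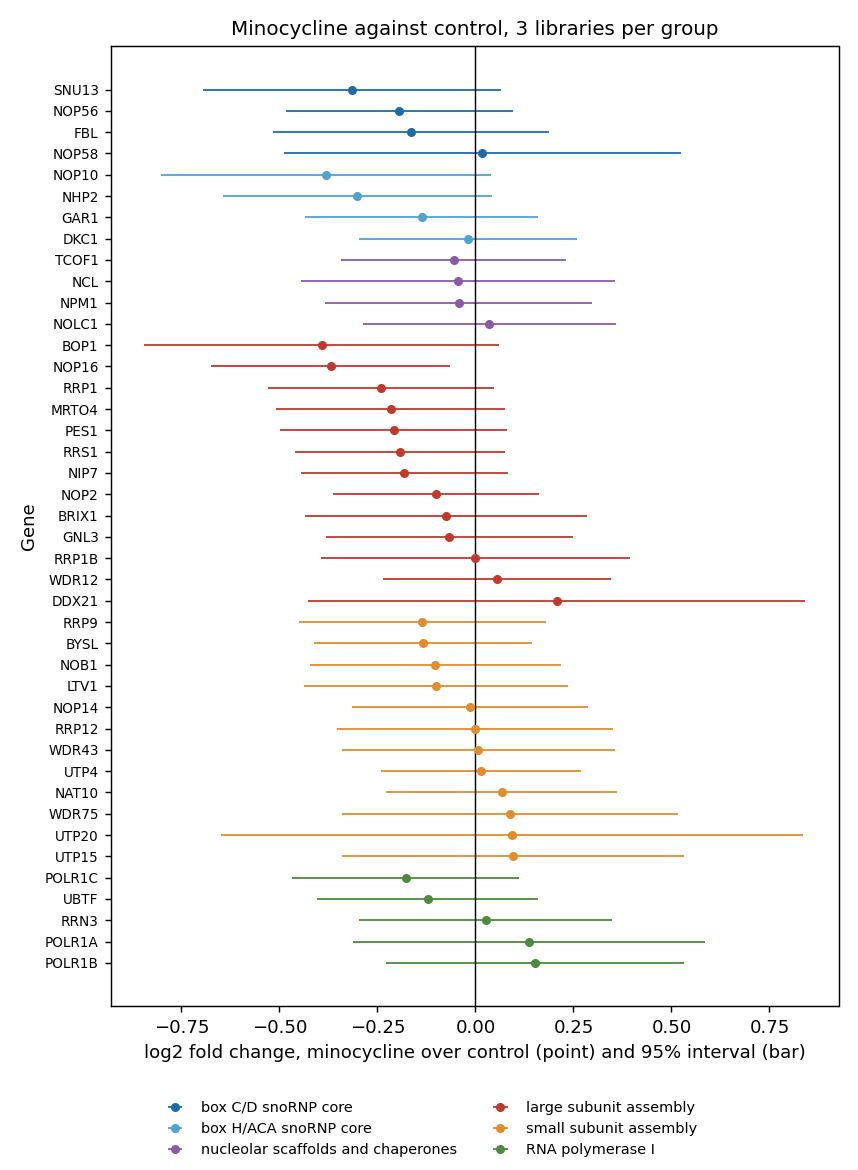
Log2 fold change of minocycline over control (x axis) for each of the 42 genes (y axis), coloured by role; points are the edgeR estimates and bars their 95% intervals, 3 libraries per group. All intervals but that of NOP16 include 0, and they run from -0.84 to 0.84.

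The spread between control libraries was larger than the difference between the groups for most members. In log2 CPM, the range of the 3 control libraries exceeded the difference of the group means in 38 of 42 members (90.5%), and in 88.7% of all genes with no library at 0. Minocycline and control libraries overlapped in 38 members. In the other 4 (9.52%), the large subunit factors BOP1, NOP16, NIP7 and RRS1, all 3 minocycline libraries lay below all 3 control libraries, an arrangement that 3.56% of all genes showed. No member had all minocycline libraries above the controls, which 5.74% of all genes had.

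**Figure D2:**
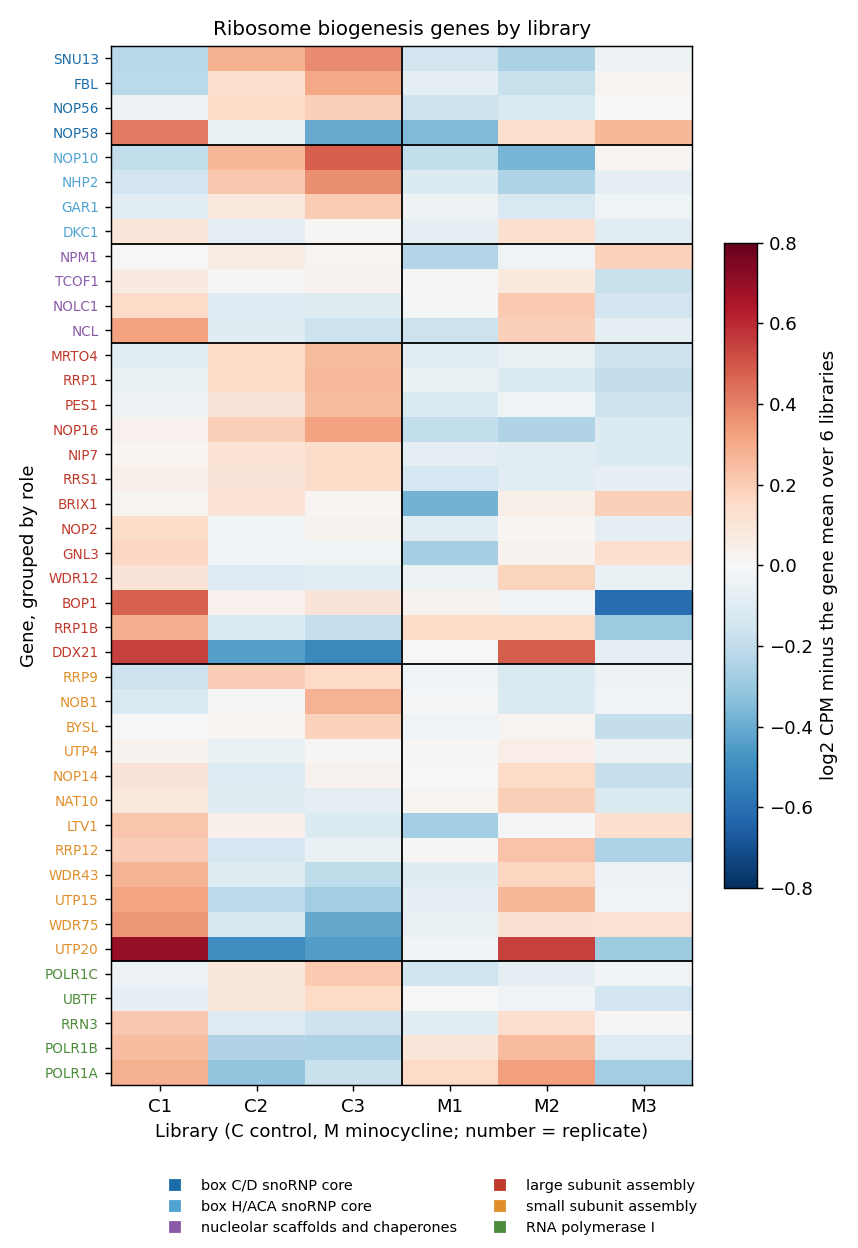
Log2 CPM of each gene (rows, grouped by role) in each library (columns; C control, M minocycline), as the difference from the gene's mean over the 6 libraries. UTP20 and DDX21 are high in control replicate 1 and minocycline replicate 2, NOP10 and SNU13 are high in control replicates 2 and 3, and no role group separates the treatments as a block.

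The members were abundant transcripts. In CPM per kilobase of annotated exon, the scale used here for levels between genes, 23 of the 42 stood in the top decile of the genes tested, and 41 stood above the median. Their median control level was 32.0 CPM per kb, against 3.80 for all genes tested and 374 for the cytosolic ribosomal protein genes. FBL was the highest at 178 CPM per kb and UTP15 the lowest at 3.55. Lengths were summed over all annotated exons, which lowers the level of genes with many alternative exons. With the longest annotated transcript instead, NPM1 (293 CPM per kb) stood above FBL (272), and the rank order of the members was otherwise close (Spearman's rho 0.96 over 42 genes, a description).

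**Figure D3:**
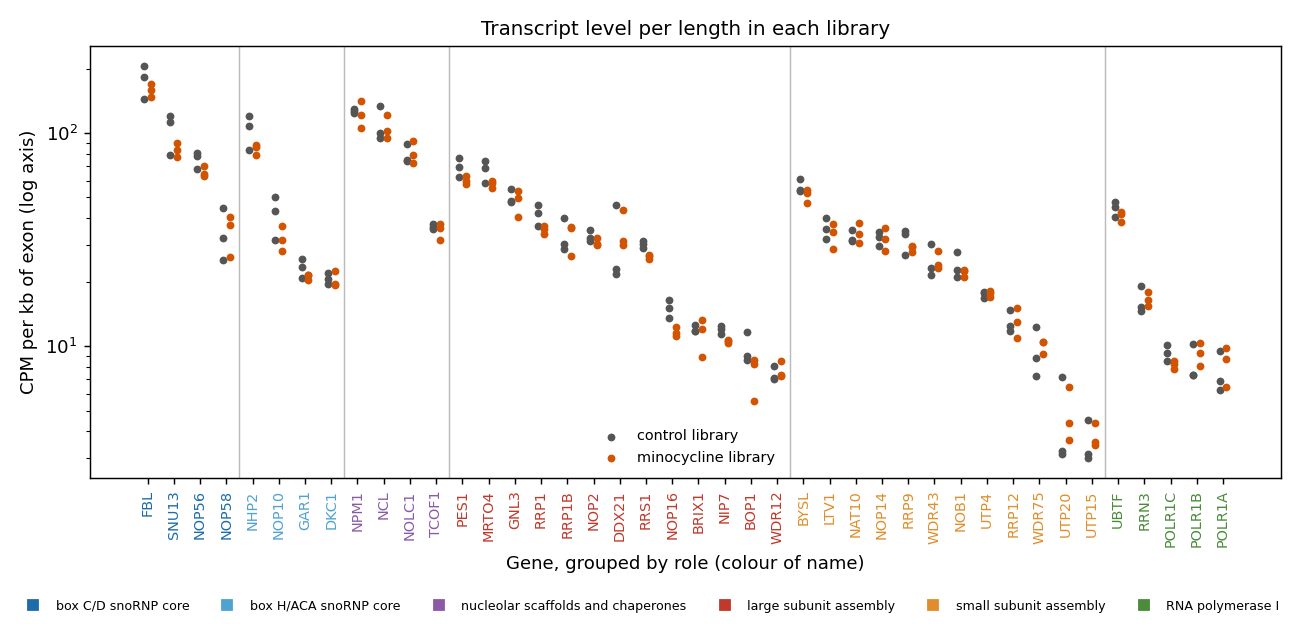
CPM per kb of exon (log axis) for each gene, grouped by role, with 1 point per control library (grey) and per minocycline library (orange). FBL, NPM1, NCL, NHP2 and SNU13 lie at the top and UTP15 and UTP20 at the bottom, and the points of the treatments lie in the same range for nearly every gene.

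In the core of the box C/D particle, FBL is the methyltransferase, NOP56 and NOP58 form its scaffold and SNU13 binds the kink of the guide RNA. FBL (ENSG00000105202.3, GRCh37 chromosome 19, 40325098 to 40337019, minus strand) was measured at 308, 390.5 and 444 CPM in control replicates 1, 2 and 3 and at 340.4, 316 and 363 CPM with minocycline. The groups overlapped, because control replicate 1 was the lowest of the 6, and the log2 fold change was -0.16 ± 0.16 (SE, n = 3 per group). SNU13 (chromosome 22, 42069937 to 42086508, minus strand) was measured at 232, 329 and 352 CPM in the controls and at 244, 227 and 263 CPM with minocycline. For SNU13, control replicate 1 lay within the range of the minocycline libraries, and the difference was -0.31 ± 0.17 (adjusted p = 0.820). NOP56 (chromosome 20, 2633239 to 2639039, plus strand) stood at 336, 385 and 398 CPM against 310.2, 320.2 and 348 CPM, a difference of -0.19 ± 0.13. The scaffold partner NOP58 went another way between libraries: it was highest in control replicate 1 at 147 CPM and lowest in control replicate 3 at 83.4 CPM, with minocycline libraries at 86.1, 121 and 132 CPM. Its log2 fold change was 0.02 ± 0.23, and within batches 1, 2 and 3 the difference was -0.77, 0.20 and 0.67. Per length, the control levels were 178, 104, 75.4 and 34.2 CPM per kb for FBL, SNU13, NOP56 and NOP58, so that transcripts of proteins that share a particle differed in level by several fold.

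In the box H/ACA particle, DKC1 (dyskerin) is the pseudouridine synthase and NHP2, NOP10 and GAR1 are its small partners. NOP10 (chromosome 15, 34631360 to 34635381, minus strand) was measured at 49.7, 68.3 and 79.2 CPM in the controls and at 49.7, 43.9 and 57.8 CPM with minocycline. Control replicate 1 lay among the minocycline libraries, and the log2 fold change was -0.38 ± 0.19 (95% interval -0.80 to 0.04). NHP2 (chromosome 5, 177576464 to 177580895, minus strand) had 124, 159.8 and 178 CPM in the controls and 128, 116 and 131 CPM with minocycline, a difference of -0.30 ± 0.15. The same library made these groups overlap. GAR1 stood at 41.0 to 50.3 CPM in the controls and 40.1 to 42.6 CPM with minocycline (-0.14 ± 0.13), and DKC1 at 180.4 to 203 against 179 to 207 CPM (-0.02 ± 0.12). All 4 had a lower fitted level and none passed. Per length, NHP2 (104 CPM per kb) stood above NOP10 (41.7), GAR1 (23.3) and DKC1 (20.8).

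Nucleolin (NCL) and nucleophosmin (NPM1) are abundant nucleolar RNA-binding and chaperone proteins, while NOLC1 and TCOF1 are phosphoproteins that bridge the polymerase and the snoRNPs. NPM1 (chromosome 5, 170814120 to 170838814, plus strand) was measured at 1038, 1079.9 and 1053 CPM in the controls and at 883, 1014 and 1181 CPM with minocycline. The minocycline libraries lay on both sides of the controls, and the difference was -0.04 ± 0.15. NCL stood at 1195, 894 and 849 CPM in the controls and 849, 1090.2 and 909 CPM with minocycline. It was high in control replicate 1 and minocycline replicate 2, and its log2 fold change was -0.05 ± 0.18. TCOF1 was among the steadiest members, at 428, 406 and 415 CPM against 409.8, 431 and 361 CPM (-0.06 ± 0.13), and NOLC1 had a difference of 0.04 ± 0.14.

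Among the 13 large subunit factors, 10 had a lower fitted level and 3 a higher one, with a median of -0.18. NOP16 (ENSG00000048162.15, chromosome 5, 175810949 to 175815928, minus strand), a nucleolar factor of the early large subunit precursor, was measured at 38.1, 42.3 and 46.4 CPM in the controls and at 32.3, 31.4 and 34.5 CPM with minocycline. The groups did not overlap, with means of 42.3 ± 4.17 and 32.7 ± 1.58 CPM (SD, n = 3 per group). Its log2 fold change of -0.37 ± 0.14 had the smallest p of all members (unadjusted p = 0.0228, adjusted p = 0.820). Within batches 1, 2 and 3 the difference was -0.24, -0.43 and -0.43. Exons of NOP16 overlap those of HIGD2A and ARL10 on the opposite strand, by up to 344 bp. Whether reads of these genes were kept apart from those of NOP16 is not known.

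RRS1, a regulator of large subunit assembly, stood at 49.8, 52.0 and 53.6 CPM in the controls and at 44.0, 45.6 and 46.3 CPM with minocycline. NIP7, a factor of large subunit maturation, stood at 54.0, 57.4 and 59.0 CPM against 50.6, 50.3 and 49.4 CPM. Both differences were small and tight, at -0.19 ± 0.12 and -0.18 ± 0.12, and neither passed (adjusted p = 0.820 for each). BOP1 (chromosome 8, 145486055 to 145515082, minus strand), which forms a complex with PES1 and WDR12 that large subunit rRNA processing needs, stood at 42.9, 31.7 and 33.2 CPM against 31.6, 30.3 and 20.3 CPM. Its gap between the groups was 31.7 to 31.6 CPM at the closest libraries, and its difference was -0.39 ± 0.20. With 1 library left out at a time, this difference ran from -0.51 (without minocycline replicate 1) to -0.23 (without minocycline replicate 3). It was -0.24 without control replicate 1. Its partners overlapped between the groups. PES1 (chromosome 22, 30972612 to 31003070, minus strand) stood at 282, 314 and 348 against 271, 285 and 261 CPM (-0.21 ± 0.13), and WDR12 at 67.6 to 77.8 against 69.9 to 82.0 CPM (0.06 ± 0.13). RRP1 and its paralog RRP1B, neighbours on chromosome 21, had differences of -0.24 ± 0.13 and 0.00 ± 0.17. MRTO4, a ribosome assembly factor related to the stalk protein, had -0.22 ± 0.13, the methyltransferase NOP2 had -0.10 ± 0.12, BRIX1 had -0.08 ± 0.16 and the nucleolar GTPase GNL3 had -0.07 ± 0.14.

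DDX21, an RNA helicase that acts in polymerase I transcription and rRNA processing, had the largest standard error after UTP20. It was measured at 425, 214 and 203 CPM in control replicates 1, 2 and 3 and at 289.7, 406 and 276 CPM in minocycline replicates 1, 2 and 3. Control replicate 1 and minocycline replicate 2 were the high libraries, and the 95% interval of its log2 fold change (0.21 ± 0.28) ran from -0.43 to 0.84.

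The 12 small subunit factors were evenly divided, with 6 lower and 6 higher fitted levels and a median of 0.00. BYSL (chromosome 6, 41889237 to 41900784, plus strand), a factor of the pre-small subunit particle, stood at 104, 105 and 118 CPM in the controls and at 102, 105 and 91.1 CPM with minocycline (-0.13 ± 0.12). RRP9, which binds the U3 snoRNA, stood at 41.4, 53.4 and 51.9 against 45.5, 42.9 and 45.1 CPM (-0.14 ± 0.14). In both genes the groups overlapped. UTP20, a long scaffold of the processome, had the largest standard error of all members, with 71.8, 31.3 and 32.4 CPM in the controls and 43.7, 64.8 and 36.3 CPM with minocycline. The batch differences of UTP20 were -0.72, 1.05 and 0.17, so its fitted value of 0.09 ± 0.33 averaged opposite values. The other 9 lay between -0.10 ± 0.14 for the nuclease NOB1 and 0.10 ± 0.19 for UTP15; the cytidine acetyltransferase NAT10 had 0.07 ± 0.13 and UTP4 0.02 ± 0.11.

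In the polymerase I group, the catalytic subunits POLR1A and POLR1B had higher fitted levels and POLR1C, a subunit shared with RNA polymerase III, a lower one. POLR1C (chromosome 6, 43477440 to 43530156, plus strand) stood at 46.8, 51.4 and 55.8 CPM in the controls and at 43.2, 45.7 and 47.1 CPM with minocycline (-0.18 ± 0.13). Its groups overlapped at control replicate 1. The promoter factor UBTF (chromosome 17, 42282401 to 42298994, minus strand) stood at 288, 320.3 and 336 against 301, 295 and 271 CPM (-0.12 ± 0.13). POLR1A was measured at 187, 124 and 136 CPM in the controls and at 172, 193 and 127 CPM with minocycline. It was again high in control replicate 1 and minocycline replicate 2, and its difference was 0.14 ± 0.20, beside 0.15 ± 0.17 for POLR1B and 0.03 ± 0.14 for RRN3. UBTF (44.5 CPM per kb) stood above RRN3 (16.4) and the 3 subunits (7.56 to 9.32) in the controls.

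The signed difference of a member between libraries of a group moved with the length of its exons. Control replicate 1 lay above control replicates 2 and 3 in 23 members and below both in 18, where 43.9% and 43.0% of all genes did. Of the 14 members with the shortest exons (1476 to 3274 bp), 11 were lower in control replicate 1 than in both other controls. Of the 14 with the longest (5600 to 19694 bp), 12 were higher there than in both other controls. The log2 difference of control replicate 1 from the mean of control replicates 2 and 3 was 1.17 for UTP20, 1.03 for DDX21 and 0.53 for POLR1A, and -0.57 for NOP10, -0.56 for SNU13 and -0.45 for NHP2. Across the 42 members this difference had a Spearman's rho of 0.58 with exon length and -0.50 with GC content, where across 16741 genes tested with a length the values were 0.35 and -0.41. The difference of minocycline replicate 2 from the other minocycline libraries had a rho of 0.86 with it over the members and 0.57 over all genes. These are descriptions across genes that share the same libraries and their depth. The share of each library held by cytosolic ribosomal protein genes was lowest in the same pair, at 7.58% in control replicate 1 and 7.54% in minocycline replicate 2. It was 8.58% to 12.6% in the other 4 libraries. The members together took 0.840%, 0.728% and 0.716% of the control counts and 0.726%, 0.815% and 0.741% of the minocycline counts. The part of this gradient in the differences between the treatments was not tested beyond the fits that follow.

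**Figure D4:**
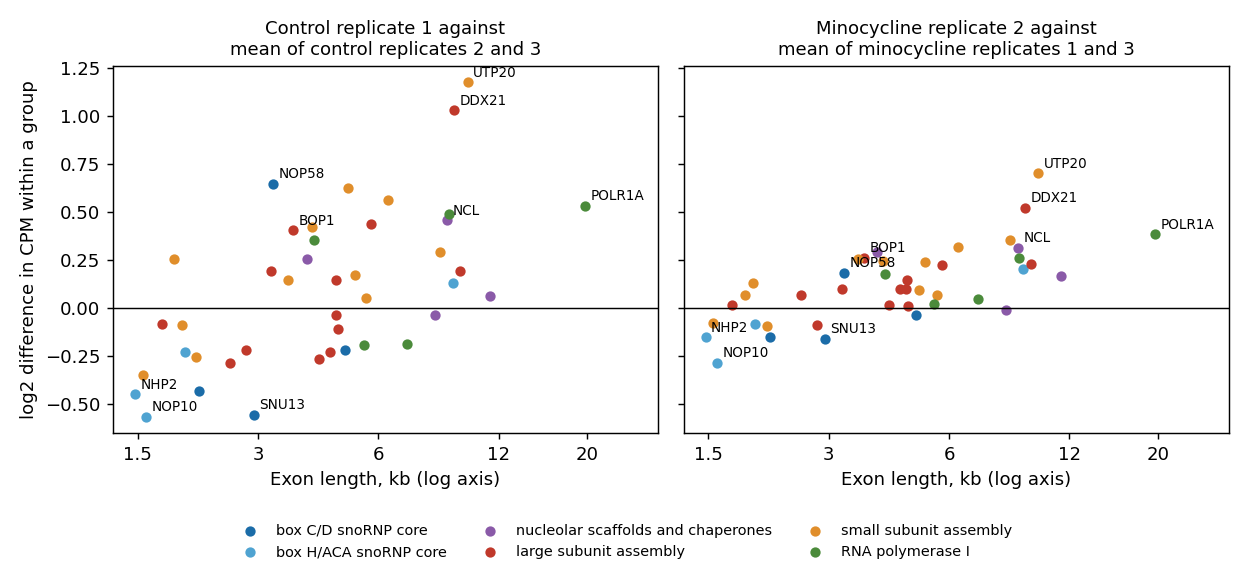
Within-group log2 difference in CPM (y axis) against exon length in kb (x axis, log scale) for the 42 genes, for control replicate 1 (left) and minocycline replicate 2 (right), coloured by role. Short genes such as NOP10 and NHP2 lie below 0 and long genes such as UTP20 and DDX21 above 0 in both panels.

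With control replicate 1 left out, 6 members passed: NOP10 (-0.55, adjusted p = 0.0135), SNU13 (-0.48, adjusted p = 0.0128), NHP2 (-0.44, adjusted p = 0.0180) and NOP16 (-0.44, adjusted p = 0.0290) were lower, and DDX21 (0.64, adjusted p = 0.0116) and UTP20 (0.60, adjusted p = 0.0394) were higher. That is 14.3% of the members, where 17.9% of the 17658 genes then tested passed (9.52% higher and 8.34% lower), so the share of members was not above that of all genes. The other members described above for control replicate 1 did not pass without it. FBL then lay at -0.30 (adjusted p = 0.0953), NOP56 at -0.26, POLR1C at -0.24, RRP9 at -0.24 and UBTF at -0.18. POLR1A moved to 0.34, POLR1B to 0.33 and NOP58 to 0.26, and NCL changed sign, from -0.05 to 0.12. With exon length and GC content corrected per library, 0 members and 0.151% of all genes passed. With 1 surrogate variable in the model, an alternative chosen after the data were seen, 0 members and 0.528% of all genes passed.

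Within the batches, the median difference over the members was -0.15, 0.02 and -0.15 in batches 1, 2 and 3. In 9 members (21.4%) the minocycline library was lower in all 3 batches, which 10.1% of all genes showed. They were NOP56, NOP10, BOP1, PES1, NOP16, NIP7, RRS1, MRTO4 and POLR1C, of which NOP10 and MRTO4 differed by 0.00 in batch 1 when rounded. No member was higher in all 3, which 13.3% of all genes showed. For the cytosolic ribosomal protein genes, the proteins these factors assemble, 79 of 80 had a lower fitted level and the median was -0.30, with batch medians of 0.12, -0.69 and -0.29. The difference between that list and the members was not tested.

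Other genes of the pathway were read in the same fit. Of 148 further ribosome biogenesis genes in 5 lists, 142 matched a row and 140 were tested, and 0 passed. Fitted levels were lower in 92 and higher in 48, with a median of -0.09. WDR46 and POLR1H, with at most 6 counts in any library, were not tested. Among the remaining polymerase I subunits the smallest p-values belonged to POLR2L and POLR2K, small subunits shared by the nuclear polymerases, at -0.63 ± 0.23 and -0.50 ± 0.18. Small subunit factors were led by the U3 protein IMP3 (-0.37 ± 0.15) and the processome subunit TBL3 (-0.30 ± 0.14). RSL24D1, a large subunit assembly factor, stood at 80.5 ± 9.90 CPM in the controls and 102 ± 18.2 CPM with minocycline (SD, n = 3 per group; 0.34 ± 0.16), and PELP1 differed by -0.26 ± 0.13. In the nuclear exosome, which trims the rRNA precursors, EXOSC4 and EXOSC8 differed by -0.38 ± 0.16 and 0.28 ± 0.13. The snoRNP assembly factors NOPCHAP1 and RUVBL2 differed by -0.41 ± 0.17 and -0.20 ± 0.16. The adjusted p was 0.820 to 0.825 for these 10 genes, and the ribosomal protein genes RPS10 and RPL17, with the smallest p-values of their list, had -0.36 ± 0.15 and -0.33 ± 0.14 (adjusted p = 0.820 for both).

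The 4 genes with the E-box near their start did not vary alike between libraries: UTP20 was high in control replicate 1, NOP10 was low there, and UTP4 and NAT10 differed from the other controls by 0.05 and 0.17. A match of letters does not show binding, and a promoter without them says nothing about the factor.

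Some counts are uncertain because of gene copies or overlaps. RRN3 has 4 named pseudogenes in the table, whose counts together came to 26.6% of those of RRN3. Of these, RRN3P1 stood at 9.03 CPM in the controls and 11.6 CPM with minocycline (0.36 ± 0.18) and RRN3P3 at 6.13 and 8.72 CPM (0.51 ± 0.24), neither past the threshold (adjusted p = 0.820 for both). NPM1 has 49 named pseudogenes in the table, with 2.40% of its counts, most of them in NPM1P27 (22.1 and 20.7 CPM). How reads were shared between a gene and its copies is not given in the sources used here. Exons of 13 members overlap those of a gene on the opposite strand, among them NOP16 with HIGD2A, NHP2 with RMND5B, NIP7 with COG8 and POLR1C with XPO5 and YIPF3, and strand use in the counting is not given either. It is therefore not known whether reads of these partners were kept apart from those of the members there. In 7 members, NOP56, NOP58, DKC1, NCL, GNL3, WDR43 and POLR1C, small nucleolar or Cajal body RNA genes lie within the gene on the same strand.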

How the data were processed

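The authors deposited a gene table with raw counts, all whole numbers, for each of the 6 libraries. Per the submitters' processing notes the build was hg19. Which aligner, counter, annotation and strand setting were used is not given in the sources used here. RNA came from silica columns with DNase treatment, and libraries from a NEBNext Ultra II RNA kit, per the labels' protocols.

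Symbols were matched for 55538 of 57820 identifiers. Positions, exon lengths and GC content came from a GENCODE annotation on GRCh37. Genes passing filterByExpr (17225) were scaled by TMM and tested with edgeR 4.0.16 (R 4.3.3), with treatment as the single term and a threshold of 0.05 on the adjusted p. CPM values are TMM-scaled, except those of the cell type markers, which are scaled by library size alone. The standard error is the log2 fold change divided by the square root of F. The test was also tried on simulated counts, drawn for each gene on its own. These lacked the gradient with exon length seen here, so the trial does not show what changes the test could find in the members.

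The labels pair replicate numbers as batches. Deviations of same-numbered libraries from their group means correlated at -0.05, -0.29 and 0.30 across genes, so the pairing rests on the label. The alternatives are in the closing section; DESeq2 1.42.0, limma 3.58.1 and sva 3.50.0 were used there. The p-values set the difference between the groups against the spread between these libraries. For each gene, that spread was drawn toward a trend over all genes tested.

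Members and lists were chosen with earlier results of these data known. Genes given in full were, per role, the 2 members with the smallest p and the highest level per length, and per related list the 2 with the smallest p. UTP20, DDX21, NOP58, NCL, POLR1A, RRS1, NIP7 and other members outside this rule were picked after their values were seen.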

Additional observations from a re-analysis of the deposited data

How the results depend on the processing

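No member passed the threshold under any of these 12 alternatives: the replicate block, 3 other scalings (RLE, upper quartile, library size), DESeq2, limma-voom, testing without the low-count filter or with a minimum of 10 counts per library, a 1.5-fold minimum, the exon length and GC correction alone or with the block, and 1 surrogate variable. With 1 library left out at a time the count ran from 0 to 6, and the 6 came without control replicate 1. In the fit with the replicate block the smallest adjusted p of a member was 0.858 and the median log2 fold change -0.08, so the block changed no member's call. That median was -0.0017 when scaled by library size alone, where the median of all genes moved to 0.08, and lay between -0.11 and -0.04 in the other alternatives. A lower fitted level was found in 28 members with TMM, 21 with library size and 31 with RLE. It was found in 37 with the length and GC correction and in 40 with 1 surrogate variable. Over all genes, the share with a lower fitted level was 47.9% with TMM and was not counted in the other fits. Outside the TMM fit, these member counts therefore cannot be set against all genes. The sign of the fitted value turned in at least 1 alternative for 25 of the 42 members and held in all of them for 17. Of the 14 members chosen by the rule for full description, it turned for FBL with 1 surrogate variable (0.011) and for NPM1 and TCOF1 with library size alone (0.029 and 0.017). With a library left out, NPM1 ran from -0.17 (without minocycline replicate 3) to 0.054 (without minocycline replicate 1), and TCOF1 from -0.11 (without minocycline replicate 2) to 0.0043 (without minocycline replicate 3); the cause was not tested.

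Over all genes tested, 9 passed in the fit reported here, against 50 with DESeq2, 94 with no low-count filter, 91 with 1 surrogate variable, 26 and 35 with the length and GC correction without and with the block, and 3 with a minimum fold. Without 1 library it ran from 1 to 3154. The precision of the member values rested in part on the spread between the 3 libraries of a group. In the fit, each gene's variance was also drawn toward a trend shared by all genes tested.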
